A study of Mus musculus with 2 samples.

Results

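The 33 genes described here are those that give a melanocyte its identity and build and move its pigment organelle, the melanosome. They were taken from a list of gene names, and all 33 were found among the 27790 genes on the arrays, with 51 probes between them. RNA of B16F1-GFP-D was set against RNA of B16F1-GFP-M. B16F1-GFP-M is the maternal line: B16F1 mouse melanoma cells, of C57BL/6 origin, that carry a GFP expression vector. B16F1-GFP-D is the dormant line: 1 clone grown from GFP+ cells that had been sorted out of the pooled organs of tumour-free mice, some of them immunised against melanoma and some not, a year after they had received B16F1-GFP cells. Both lines were untreated cultures in the same medium, and both carry the vector. The 2 arrays, on 1 slide, are 2-colour Agilent arrays on which both RNAs bind to the same spots. B16F1-GFP-M was in Cy5 on array 1 and in Cy3 on array 2, and B16F1-GFP-D had the other dye. The labels name no separate cultures, so the arrays count as 1 replicate per line, no test between the lines was possible, and each SD below is that between the 2 arrays. It covers dye and scanning error and no difference between cultures.

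Melanocytes arise from the neural crest, and their pigment programme is run by the transcription factor MITF, with SOX10, PAX3 and cyclic AMP signals from the receptor MC1R acting on its gene. MITF in turn binds short motifs in front of the genes for the pigment enzymes and for many melanosome proteins. The enzymes turn tyrosine into melanin on protein fibrils inside the melanosome, sorting complexes deliver them there from the endosome, and a RAB27A, melanophilin and myosin Va bridge ties the finished organelle to actin. B16 cells are a melanoma line long used as a source of pigmented cells.

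The programme was on in both lines and differed little between them. A gene counts as detected when, on array 1 and again on array 2, its brightest probe stood well above background in B16F1-GFP-D, in B16F1-GFP-M or in both. Of the 33 genes 31 were detected, and each of these stood well above background in all 4 channels. That includes every one of the 7 genes taken as melanocyte markers, *Mitf*, *Sox10*, *Tyr*, *Tyrp1*, *Dct*, *Pmel* and *Mlana*. Values are log2 ratios of B16F1-GFP-D to B16F1-GFP-M, so that a positive value is higher in the dormant line and 1 is 2-fold. By a rule of size, a difference of 2-fold or more whose sign the arrays share, 1 of the 31 genes was higher in B16F1-GFP-D, *Met*, and 0 were lower. Among all 12540 detected genes, 5.02% passed this rule, 3.09% higher and 1.94% lower. At 1.5-fold on each array, *Met* was again the 1 gene higher, and *Mitf* and *Ap3b1* were the 2 lower, beside 15.8% of all detected genes, 8.77% higher and 7.02% lower. The shares in these genes were close to or below those over all genes.

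Below those sizes, more of the genes lay under 0 than above it. On both arrays 17 of the 31 genes were lower in B16F1-GFP-D and 7 were higher, and the arrays differed in sign for the other 7. In percent these are 54.8%, 22.6% and 22.6%, beside 42.8%, 41.0% and 16.2% of all detected genes. The median over the 31 genes was -0.17, against -0.01 over all detected genes, although it turned to 0.09, against 0.07 over all genes, when the arrays were only centred on their medians. Under that centring the arrays lay far apart: the SD between their medians over these genes was 1.82, against 0.00 in the main analysis. In size the values of the main analysis were small, with 26 of the 31 genes, or 83.9%, within 0.5 of 0, compared with 74.3% of all detected genes. The SD between the arrays, pooled over genes, was 0.21 for these genes and 0.15 for all.

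**Figure D1:**
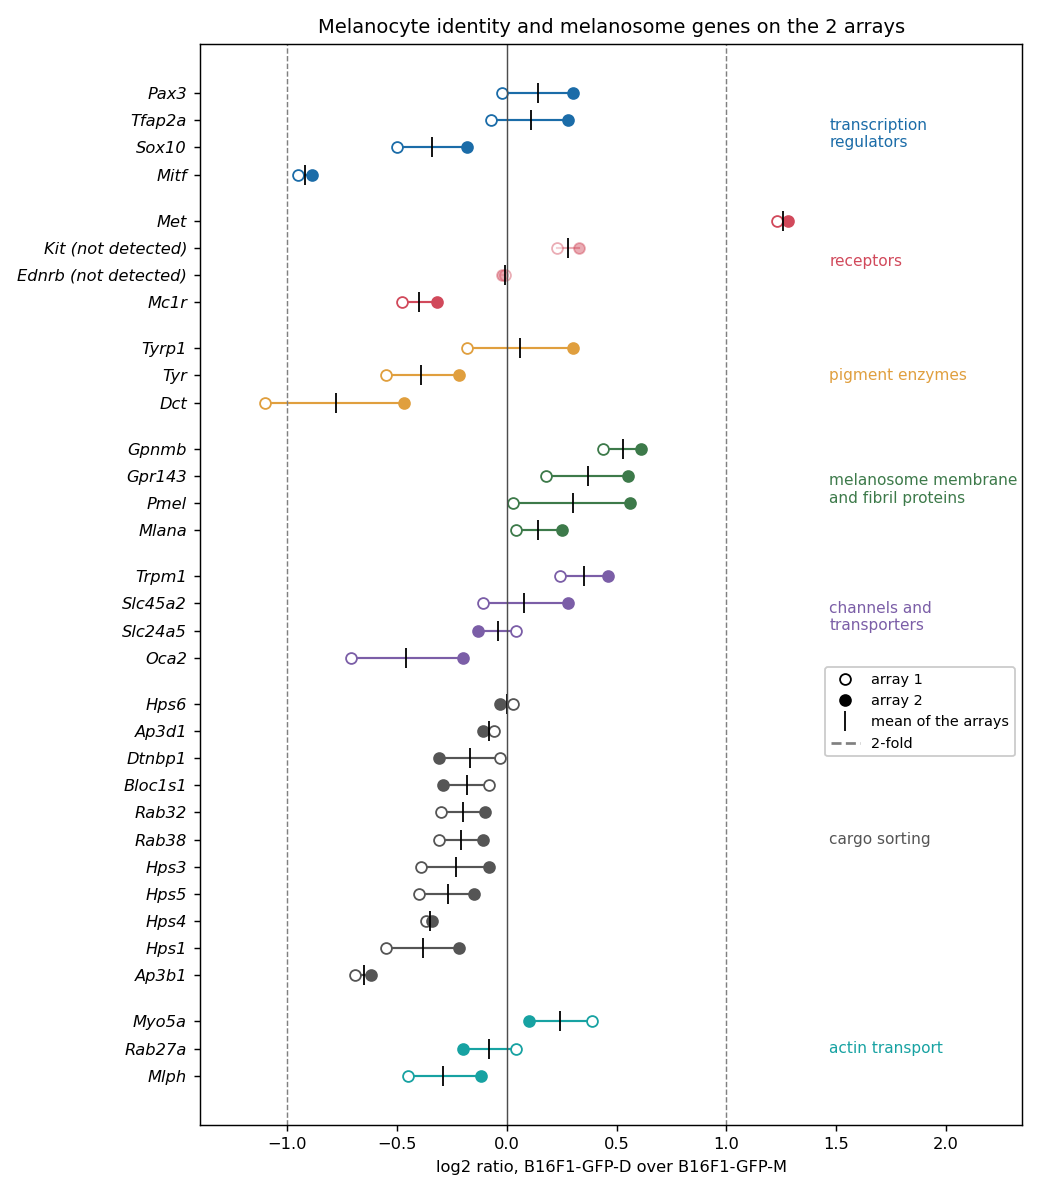
Log2 ratio of B16F1-GFP-D to B16F1-GFP-M for each of the 33 genes by role, on array 1 (open points), on array 2 (filled points) and as the mean of both (black bars), with dashed lines at 2-fold. *Met* at 1.23 and 1.28 is the only gene past 2-fold on both arrays, *Mitf* at -0.95 and -0.89 comes next in size with close values, and pale points mark *Kit* and *Ednrb*, which were not detected.

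**Figure D2:**
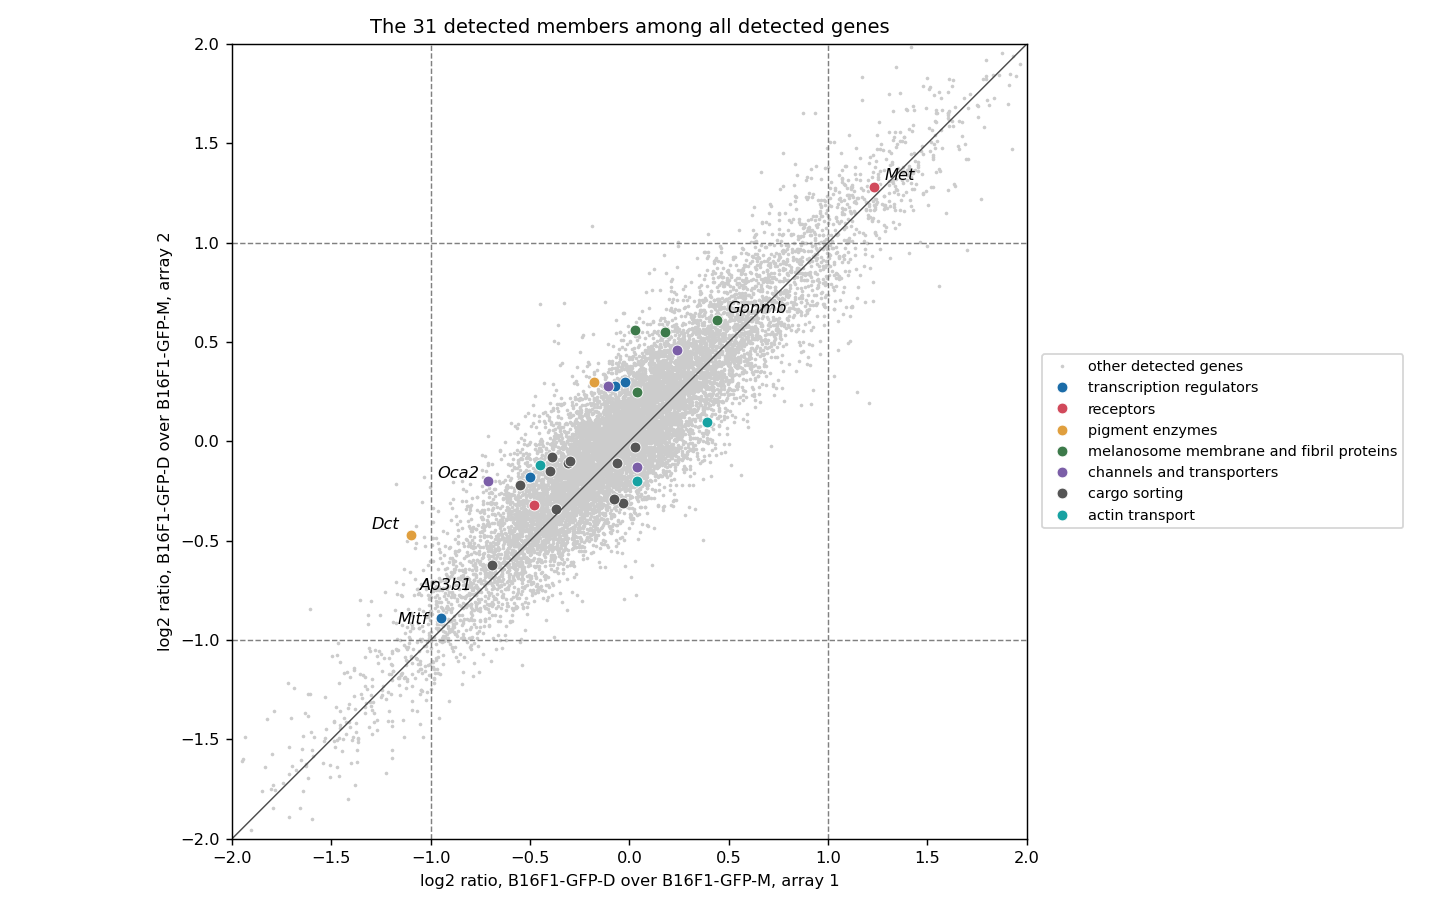
Log2 ratio of B16F1-GFP-D to B16F1-GFP-M on array 1 (horizontal) and array 2 (vertical) for all detected genes (grey) and the 31 detected members (coloured by role), with the diagonal where both arrays give the same value and dashed lines at 2-fold; 69 detected genes lie beyond the axes, which end at 2 and -2. *Dct*, at -1.10 and -0.47, passes 2-fold on array 1 alone, and 24 of the 31 members lie above the diagonal.

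*Mitf*, the master regulator of the lineage, was the lowest of the 4 regulators. Its log2 intensity was 12.52 and 12.54 in B16F1-GFP-D on arrays 1 and 2, and 13.47 and 13.43 in B16F1-GFP-M. The ratios were -0.95 and -0.89, a mean of -0.92 ± 0.04, or 1.89-fold, which placed it at percentile 3.0 of all detected genes, counted from the lowest. Both values fell just short of 2-fold. The brightest probe lies at chr6:97968386-97968445 on mm9, the build of the array files. A second, dimmer probe gave -0.56 and -0.47, lower in B16F1-GFP-D as well but by less. This probe reaches over 4257 bases of the genome, at chr6:97956187-97960443, so that it lies across an intron. Its letters are coding sequence of the basic helix-loop-helix domain with which MITF holds DNA, a stretch that the isoforms of the gene share. It is shown here 5′ to 3′ with no capitals, as a probe in coding sequence. Which isoforms the brightest probe reads was not determined.
Mitf probe: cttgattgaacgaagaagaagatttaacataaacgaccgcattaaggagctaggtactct

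The RefSeq table of gene starts, on GRCm38.p6, gives 3 starts for *Mitf*. The 250 bases before the start that lies farthest along the gene, at chr6:97991533-97991782 on the plus strand, are shown because they hold TGACGTCA, in capitals, the palindrome known as the cyclic AMP response element. These letters were looked for only after this sequence had been read. They begin 153 bases before the start.
Mitf upstream: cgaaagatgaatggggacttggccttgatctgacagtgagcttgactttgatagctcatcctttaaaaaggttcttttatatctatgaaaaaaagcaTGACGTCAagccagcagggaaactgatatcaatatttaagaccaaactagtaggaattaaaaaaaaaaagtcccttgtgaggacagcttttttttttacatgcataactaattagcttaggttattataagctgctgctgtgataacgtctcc
Of the 26 members with a window of 250 bases before to 50 bases after a start, *Hps4* was the only other one to hold these letters. Among all 27025 genes with a window, 2.03% held them. *Mitf* was certain to hold them, as the letters were picked from its sequence, so a share of the members that includes it cannot be compared with that percentage.

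The other regulators moved less. *Sox10*, a neural crest factor that acts on the *Mitf* gene, had -0.50 and -0.18, and its dimmer probe 0.38 and -0.46, so that the arrays disagreed in sign on that probe. *Pax3*, which acts there with SOX10, had -0.02 and 0.30 on the brightest probe and -0.35 and -0.22 on the other, and the 2 probes thus pointed in opposite directions. *Tfap2a*, which works beside MITF on melanocyte genes, had -0.07 and 0.28. None of these 3 genes had a mean farther from 0 than 0.34, and the median of the 4 regulators was -0.12. That median had no stable sign, at -0.29 on array 1 and 0.05 on array 2. It was 0.03 when the arrays were only centred on their medians, with an SD of 1.82 between the arrays.

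*Met* stood apart from the other receptors. It encodes the receptor of hepatocyte growth factor, a growth and movement signal for melanocytes and melanoma cells, and is itself known as a target of MITF. The log2 intensity of its brightest probe was 13.72 and 13.69 in B16F1-GFP-D and 12.49 and 12.40 in B16F1-GFP-M, with no overlap between the lines. The mean ratio was 1.26 ± 0.04, or 2.39-fold, at percentile 98.0 of all detected genes. This probe lies at chr6:17523765-17523824 on mm9. The gene's other probes gave 0.82 and 0.89, and 0.91 and 0.88, so that on each array all 3 probes were higher in B16F1-GFP-D while only the brightest passed 2-fold. When probes of a gene were combined by their median, *Met* had 0.90 and no member was past 2-fold on each array then. A probe in the coding sequence, at chr6:17503299-17503358, is shown without capitals, as it lies farthest from the brightest.
Met probe: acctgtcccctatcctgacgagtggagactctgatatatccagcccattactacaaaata

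Of the melanocyte's own receptors only *Mc1r* was detected. *Mc1r*, the receptor of melanocyte-stimulating hormone, had -0.48 and -0.32, a mean of -0.40 ± 0.11. *Kit*, the receptor of stem cell factor, was not detected: its probe was well above background only in B16F1-GFP-D on array 2, and read 0.23 and 0.33. Its ratio has no firm size, since it was 0.28 as the mean of these, 1.06 with a normexp offset of 0 and 1.59 with the scanner software's own log ratio. *Ednrb*, the receptor of endothelin 3 on melanocyte precursors, was well above background only in B16F1-GFP-M on array 1, with -0.01 and -0.02. The median of the 2 detected receptors was 0.43, and it lies between 2 genes of opposite sign.

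The 3 pigment enzymes form a family of related copper and zinc proteins, and MITF is known to bind the M-box, a motif around CATGTG, in front of each. The 250 bases before the start of each gene in RefSeq, on GRCm38.p6, are shown with GTCATGTG in capitals, the letters that the 3 genes hold in the same orientation. The windows are chr7:87493513-87493762 on the minus strand for *Tyr*, chr4:80833963-80834212 on the plus strand for *Tyrp1*, and chr14:118052247-118052496 on the minus strand for *Dct*.
Tyr upstream: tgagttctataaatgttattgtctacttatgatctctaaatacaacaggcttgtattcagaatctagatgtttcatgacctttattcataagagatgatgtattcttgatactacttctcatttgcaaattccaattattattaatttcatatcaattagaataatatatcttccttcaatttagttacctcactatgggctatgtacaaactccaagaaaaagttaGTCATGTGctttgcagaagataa
Tyrp1 upstream: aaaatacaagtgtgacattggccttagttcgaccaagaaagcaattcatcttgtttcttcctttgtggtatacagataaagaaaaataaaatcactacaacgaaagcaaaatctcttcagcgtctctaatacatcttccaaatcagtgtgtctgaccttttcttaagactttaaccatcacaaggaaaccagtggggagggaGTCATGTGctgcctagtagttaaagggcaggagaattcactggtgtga
Dct upstream: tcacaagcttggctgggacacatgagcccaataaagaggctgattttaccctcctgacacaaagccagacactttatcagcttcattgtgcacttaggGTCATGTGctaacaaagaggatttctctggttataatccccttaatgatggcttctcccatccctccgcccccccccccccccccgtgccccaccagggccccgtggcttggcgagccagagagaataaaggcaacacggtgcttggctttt
The letters begin 23 bases before the start in *Tyr*, 48 in *Tyrp1* and 152 in *Dct*.

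The 3 enzymes did not move together. *Tyr*, which encodes the rate-limiting enzyme tyrosinase, had log2 intensities of 8.20 and 8.29 in B16F1-GFP-D and 8.75 and 8.51 in B16F1-GFP-M, with ratios of -0.55 and -0.22 and a mean of -0.39 ± 0.23. *Tyrp1*, which acts late in the making of eumelanin, had 15.36 and 15.55 in B16F1-GFP-D and 15.54 and 15.25 in B16F1-GFP-M, and its ratios of -0.18 and 0.30 differ in sign. *Dct*, or dopachrome tautomerase, which acts before it, had 15.95 and 16.62 in B16F1-GFP-D and 17.04 and 17.09 in B16F1-GFP-M. Its ratios were -1.10 and -0.47, a mean of -0.78 ± 0.44, the widest spread of any member. B16F1-GFP-D was below B16F1-GFP-M on both arrays for *Tyr* and *Dct*, and the lines overlapped for *Tyrp1*. A second *Dct* probe, with a mean log2 intensity of 15.71 against 16.71 for the brightest, gave -0.16 and 0.10, so that the size of the *Dct* value depended on the probe. The brightest lies at chr14:118412048-118412105 and the second at chr14:118438837-118438896, both on mm9. The second is shown as the probe on which the lines did not separate.
Dct probe: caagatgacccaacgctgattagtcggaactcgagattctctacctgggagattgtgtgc

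The genes for proteins of the melanosome's membrane and fibrils lay above 0. On each array all 4 were higher in B16F1-GFP-D, beside 41.0% of all detected genes, with means from 0.14 to 0.53, and none reached 1.5-fold on each. The median was 0.33 over the means, 0.11 on array 1 and 0.56 on array 2. Their means stayed above 0 under each of the 11 other processing settings. *Pmel*, which forms the fibrils, had 0.03 and 0.56. *Mlana*, also called MART-1, a small membrane protein that works with it, had 0.04 and 0.25. *Gpnmb*, a relative of *Pmel*, had the highest values, 0.44 and 0.61 with a mean of 0.53 ± 0.12, and its dimmer probe gave 0.57 and 0.43. *Gpr143*, the receptor of the organelle's membrane whose loss causes ocular albinism, had 0.18 and 0.55. On array 1 *Pmel* and *Mlana* were within 0.04 of 0, so that nearly all of their shift came from array 2.

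Channels and transporters set the ions and pH of the organelle, and they showed no common direction, with a median of 0.02. *Slc45a2*, needed for the right pH, had -0.11 and 0.28, and *Slc24a5*, a cation exchanger, 0.04 and -0.13. *Oca2*, a chloride channel that also raises the pH, was lower in B16F1-GFP-D, at -0.71 and -0.20, with a mean of -0.46 ± 0.36. *Trpm1*, a cation channel of melanocytes whose gene is a target of MITF, was higher, at 0.24 and 0.46. Only for *Trpm1* was the mean more than 2 times the SD between the arrays.

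The genes that sort cargo to the melanosome lay mostly below 0. Of the 11, all detected, 10 were lower in B16F1-GFP-D on both arrays, or 90.9%, beside 42.8% of all detected genes, with means from -0.65 to 0 and a median of -0.21. *Ap3b1*, the beta subunit of the AP-3 adaptor that loads tyrosinase, was the lowest, at -0.69 and -0.62 with a mean of -0.65 ± 0.05. Its log2 intensity was 12.08 and 12.02 in B16F1-GFP-D and 12.77 and 12.65 in B16F1-GFP-M. *Ap3d1*, the delta subunit of the same adaptor, had -0.06 and -0.11. The 2 subunits of AP-3 among the members thus differed in size.

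The BLOC complexes and the RAB proteins they serve followed. *Hps1* and *Hps4*, the partners in BLOC-3, which switches on RAB32 and RAB38, had -0.55 and -0.22, and -0.37 and -0.34. The dimmer probe of *Hps1* gave only -0.07 and -0.09. *Hps3* and *Hps5* of BLOC-2, which steers carriers from the endosome, had -0.39 and -0.08, and -0.40 and -0.15, while their partner *Hps6* had 0.03 and -0.03. *Dtnbp1* and *Bloc1s1* of BLOC-1 had -0.03 and -0.31, and -0.08 and -0.29, but their dimmer probes were above 0 on both arrays, between 0.04 and 0.34. *Rab38* and *Rab32*, the small GTPases that act in this transport, had -0.31 and -0.11, and -0.30 and -0.10. All values of these complexes were under 1.5-fold, and when the arrays were only centred on their medians 6 of the 11 means were below 0 and 5 above. Under that centring the median of the 11 genes had an SD of 1.83 between the arrays, against 0.11 in the main analysis.

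The 3 genes of the bridge to actin did not share a direction. *Rab27a*, on the organelle's surface, had 0.04 and -0.20. *Mlph*, or melanophilin, the linker, had -0.45 and -0.12. *Myo5a*, the motor, had 0.39 and 0.10, and its dimmer probe 0.53 and 0.54. The means were -0.08, -0.29 and 0.24.

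The spread between the arrays was not even over the genes. Array 2 gave the higher ratio for 24 of the 31 members, or 77.4%, beside 60.3% of all detected genes. The 6 brightest members, with a mean log2 intensity above 14, were *Tyrp1*, *Dct*, *Pmel*, *Mlana*, *Gpnmb* and *Slc45a2*, and array 2 was above array 1 for all 6 of them. Their gap had a median of 0.44, from 0.17 to 0.63. Over the 402 detected genes of such brightness, array 2 was higher for 53.7%, with a median gap of 0.02. For the 25 members at 14 or below, the median gap was 0.19. For these 6 bright members each line thus read relatively higher on the array where it was in Cy5. The part of the dyes in these gaps was not tested; an effect of the dyes cancels only in the mean of the 2 arrays.

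**Figure D3:**
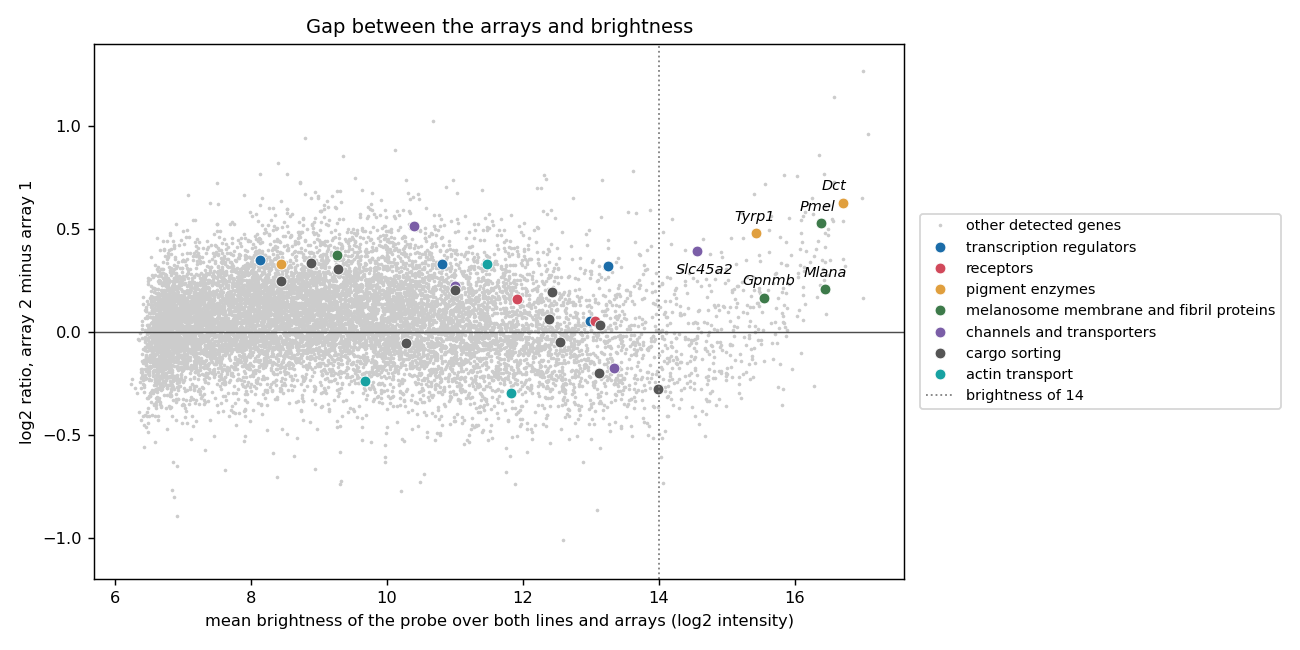
Log2 ratio of array 2 minus that of array 1 against the mean log2 intensity of the probe, for all detected genes (grey) and the 31 detected members (coloured by role), with a dotted line at a brightness of 14. The 6 members to its right all lie above 0, from 0.17 to 0.63, while the 402 detected genes of that brightness have a median gap of 0.02.

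For 13 members more than 1 probe was detected, and the means of the probes had the same sign for 10 of them. The exceptions were *Pax3*, *Dtnbp1* and *Bloc1s1*. Among the 10, the dimmer probes of *Dct* and *Sox10* had means of only -0.03 and -0.04, with arrays that differed in sign. The distance between the lowest and the highest probe mean ran from 0.01 in *Rab27a* to 0.75 in *Dct*, and it was 0.41 in both *Met* and *Mitf*. These 2 genes kept their direction on each probe and each array.

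**Figure D4:**
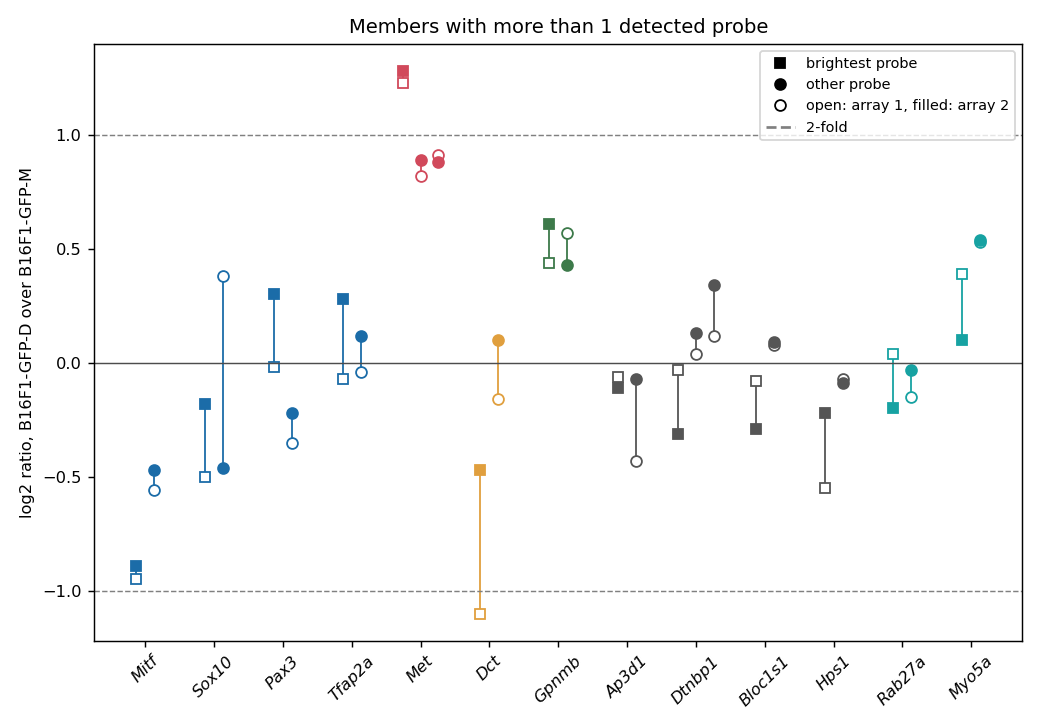
Log2 ratio of B16F1-GFP-D to B16F1-GFP-M for every detected probe of the 13 members with more than 1, on array 1 (open) and array 2 (filled), with squares for the brightest probe of a gene, circles for the others and dashed lines at 2-fold. The 3 probes of *Met* all lie above 0 and the 2 of *Mitf* below it, while the probes of *Dct* differ by 0.75 in their means.

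The wider pathway was read from a second list of 67 pigmentation genes outside the first, of which 65 were on the arrays and 52 detected. Their median was -0.03, and 2 were past 2-fold higher and 2 past 2-fold lower on each array, beside the 3.09% and 1.94% of all detected genes. *Ppargc1a*, a coactivator of mitochondrial genes and a known target of MITF, was the highest, at 2.38 and 2.74, or 5.89-fold. *Sox9*, a relative of *Sox10* that is used in other neural crest lineages too, was at 1.64 and 1.28, or 2.75-fold. *Pomc*, whose product is cut to give the hormone that MC1R binds, was lower, at -1.13 and -1.03, or 2.11-fold. *Slc7a11*, a cystine transporter that red pigment needs, was lowest, at -2.10 and -1.94, or 4.06-fold. When probes of a gene were combined by their median, *Slc7a11* had -1.49, *Sox9* 1.21 and *Ppargc1a* 2.61. The MITF relatives *Tfeb*, at -0.42 and -0.45, and *Tfe3*, at -0.08 and -0.37, were under 1.5-fold, and *Tfec* was not detected. The 8 detected genes listed as further MITF targets had a median of 0.27, with 5 higher and 3 lower on both arrays, beside 41.0% and 42.8% of all detected genes. The 6 BLOC-1 subunits that are not members had a median of -0.29, and 5 of them were lower in B16F1-GFP-D on both arrays, as were the brightest probes of the 2 that are members, beside 42.8% of all detected genes. Of the 4 detected AP-3 subunits outside the first list, *Ap3m2*, chosen here after its value was seen, had -0.93 and -1.01, and the median of the 4 was -0.01.

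Motifs in front of the members were counted on both strands in windows of 300 bases, from 250 before to 50 after each start. This was done for the 26 members with a window. No window was at hand for *Pmel*, *Sox10*, *Gpr143*, *Pax3*, *Mlana*, *Rab38* and *Slc45a2*. CATGTG, or CACATG on the other strand, was found in 9 of the 26, or 34.6%, and in 15.9% of all 27025 genes with a window. The longer TCATGTG, which contains it, was found in 7, or 26.9%, and in 4.31% of all. GTCATGTG, longer still, was found in 4, or 15.4%, and in 1.17% of all. The 4 were *Tyr*, *Tyrp1*, *Dct* and *Hps1*, whose ratios were -0.39, 0.06, -0.78 and -0.38. The M-box was already known in front of *Tyr*, *Tyrp1* and *Dct*, so their matches could be foreseen. Shares of the members that include these genes therefore cannot be compared with the percentages over all genes. The other holders of TCATGTG were *Slc24a5*, *Trpm1* and *Mc1r*, at -0.04, 0.35 and -0.40. The holders thus lay on either side of 0. A match in letters is not a binding site, and a gene with several starts has several windows.

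Markers of other cell types were near background. Of 36 markers, 9 were detected, and none passed 2-fold on each array: 3 of 8 for fibroblasts, 2 of 7 for leukocytes, 3 of 4 for Schwann cells, 1 of 4 for neurons, and 0 for keratinocytes, endothelium and hepatocytes. *Pdgfrb*, picked out after its value was seen, was the 1 marker past 1.5-fold on each array, at 0.98 and 0.69, and was not well above background in B16F1-GFP-M. *Ptprc*, the common antigen of leukocytes, was not detected. In RNA from whole cultures, fewer cells with a gene on and less of its RNA in each cell cannot be told apart.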

How the data were processed

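The authors' scanner software (Agilent Feature Extraction 10.7.3.1) read the intensity of every spot and of the background around it; these values are not normalized. The deposited log10 ratios of Cy5 over Cy3, also in the series value table, had been background-subtracted and dye-normalized by that software, and were used as alternatives. The other deposited columns used are the software's flags of 0 or 1 for spots well above background, saturated spots and outliers.

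Of 43379 spots, outliers (143 on array 1 and 176 on array 2) were dropped. On array 1, 60.7% of spots were well above background in B16F1-GFP-M and 44.1% in B16F1-GFP-D, and on array 2, 45.0% and 56.1%. No spot was saturated. In R 4.3.3 with limma 3.58.1, signals were corrected by normexp with an offset of 50, which draws ratios of dim spots towards 0, normalized by loess within each array, and turned to log2 ratios of B16F1-GFP-D to B16F1-GFP-M. The number of arrays limits the precision. Replicate spots were averaged, and a gene was read from its brightest probe. Accessions gave names through the RefSeq table of GRCm38.p6 for 27198 of 28075 probes, and gave 31 of the 33 members; the rest kept the file's name. Genes with a value in the text are all members, the other pigmentation genes and markers past 2-fold on each array, and the MITF family; *Ap3m2*, *Pdgfrb* and *Ptprc* were added after their values were seen. Members and lists were chosen with earlier results of these data known. The calling rule was tested on simulated data. The alternatives were other background corrections, normalizations, filters, probe rules, fold thresholds and each array alone. Tables were made in Python 3.11.15 (pandas 2.3.3, numpy 2.4.6) and plots with matplotlib 3.10.9.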

Additional observations from a re-analysis of the deposited data

How the results depend on the processing

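There were 11 other ways of making the values, and 3 other size rules. *Met* was the only member past 2-fold on each array in the main analysis, and the count of 1 became 2 on array 1 alone, where *Dct* joined it, and 0 with median centring of the arrays, when probes of a gene were combined by their median and at 3-fold; it was 3 at 1.5-fold. *Met* itself ran from 0.90 to 1.52 and *Mitf* from -0.96 to -0.66. The median over the members, -0.17, was -0.20 in the series value table as well as with the scanner's log ratio, -0.22 with an offset of 0, -0.08 without a filter on dim probes as well as with the median of the probes, -0.10 on array 1 alone, -0.11 on array 2 alone and 0.09 with median centring. The median of the receptors, 0.43, was 0.13 with no filter, which adds *Kit* and *Ednrb*, 0.25 with the median of the probes, -0.01 on array 1 alone, 0.33 on array 2 alone and 0.66 with median centring. That of actin transport, -0.08, was 0.04 on array 1 alone. Median centring leaves dye effects that change with brightness. The median over the members then had an SD of 1.82 between the arrays, against 0.00 in the main analysis. This setting further gave 0.66 for the membrane and fibril proteins, 0.33 for channels and transporters, -0.05 for cargo sorting and 0.07 for the other pigmentation genes. It left 1 of the 4 genes of that list past 2-fold, and 64 of all genes were then past it, in place of 630. Of all detected genes, the 5.02% past 2-fold on each array became 10.8% with the scanner's log ratio, 1356 genes. It was 8.59% with an offset of 0, 1077 genes. The count of members stayed at 1 under both settings. For the other pigmentation genes, the count of 4 became 5 with an offset of 0. It was 6 with the scanner's log ratio, in the series value table and on array 2 alone. Median centring changed the sign of 7 detected members, the largest of them -0.21 in the main analysis. No member's value was past 2-fold on each array in one direction under one setting and in the other under another. The cause of the other shifts was not tested. No paired analysis was possible because there is 1 replicate per line; every ratio already sets the lines against each other within an array. The identity of the 3 pigment enzymes was not computed, as no protein table was used here. Signal over background, with a median of 1.66 to 2.60, limits dim genes such as *Kit*.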
